A study of Arabidopsis thaliana with 24 samples.

Results

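Transcripts were counted in rosettes of wild-type (WT) Arabidopsis thaliana sampled 24 hours after Pieris brassicae (large white butterfly) caterpillars were put on them, and in rosettes without pests. Both groups grew from seed treated with water (H2O), so neither was primed with methyl jasmonate. The caterpillar-fed plants gave 4 libraries and the controls 4, chosen by their labels as 8 of the 24 libraries of the series. The other groups used below, of 4 libraries each, were WT plants from water-treated seed 24 hours after infestation with Tetranychus urticae, a spider mite, and WT plants from methyl jasmonate-treated (primed) seed with Pieris brassicae or without pests. The labels number the biological replicates and do not say whether each was 1 plant or a pool. The spread that p-values measure here is thus that between libraries, and how much of it lies between single plants is not known. Every gene of the count table entered the comparison: 20038 of 32833 genes passed a filter on low counts and were tested. Genes were described by 42 lists of known roles, of whose 644 loci 604 were tested.

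Chewing insects wound the leaf, and wounded Arabidopsis leaves make jasmonates from membrane lipids of the chloroplast. The active form, jasmonoyl-isoleucine, joins the receptor COI1 to the JAZ repressors, which are then degraded and set free MYC factors that bind the G-box, CACGTG. Caterpillars of Pieris are specialists on plants of the cabbage family, whose best known defence is glucosinolates: sulfur-rich glucosides made from methionine or tryptophan, which myrosinases split when tissue is crushed. In Arabidopsis the jasmonate pathway with MYC factors serves mainly defence against chewing insects, a branch shared with ethylene leads to defensins, and salicylic acid serves mainly defence against pathogens that live on living cells.

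Library totals were 17915337 to 26956821 counts in caterpillar-fed plants and 20930058 to 22084808 counts in controls. Levels are given in CPM, counts relative to the normalized library size, always in the order of replicates 1 to 4. Changes are log2 fold changes ± SE of caterpillar-fed plants over controls (n = 4 each) from edgeR's quasi-likelihood test, with Benjamini-Hochberg adjustment over all tested genes. In a whole rosette, a change in RNA per cell and a change in the share of a cell type cannot be told apart. The 4 control libraries stood in 2 pairs. Counts of replicates 1 and 2 differed by a chi-square of 5.92 per gene and those of replicates 3 and 4 by 5.06, while libraries across the pairs differed by 19.85 to 28.93. The caterpillar-fed libraries stood likewise but less far apart, with 7.65 between replicates 1 and 2, 6.99 between replicates 3 and 4 and 10.28 to 16.32 across. The labels name no batch, and its part in the results was not tested. Each result was therefore also computed against replicates 1 and 2 alone and against replicates 3 and 4 alone. Such tests leave out the spread between the control pairs, and both use the same caterpillar-fed libraries. Their p-values thus do not measure the whole spread of the controls, and the tests are not independent of each other.

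Caterpillar feeding changed 5574 genes, 27.8% of those tested: 2839 were higher (14.2%) and 2735 lower (13.6%). Large changes were mostly increases, since 777 genes rose at least 2-fold and 127 fell as much. Against control replicates 1 and 2 alone 3276 genes were higher (16.3%) and 3640 lower (18.2%), and against replicates 3 and 4 alone 1485 were higher (7.41%) and 1010 lower (5.04%). Called against each pair, in the same direction, were 1327 higher genes (6.62%) and 894 lower genes (4.46%). The groups did not overlap in 5013 genes (25%). The median log2 fold change of all tested genes was −0.00468. Of the genes described below as raised or lowered, ACX5, CHIL, CML37, CRK13, FLS1, GL3, GRX480, GTR2, HSF4, HSFA7A, MYB28, MYB29, ORA59, PCL1, PYL5, RGA1, RLP53, RBCS1A, RBCS2B, RCA, FBA2 and CA1 were not called against control replicates 3 and 4 alone, and ACX5, BHLH101 and PAL1 were not called against replicates 1 and 2 alone. Of the genes given below without a call, CERK1, EDS16, ERF1, KTI1, PAD3, PAD4, PR4 and TAT3 were higher and ESM1, HSP101, ST2B and TCH2 lower against replicates 1 and 2 alone, and none of these was called against replicates 3 and 4.

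The caterpillar-fed libraries also differed in how far they moved. Of the 2839 raised genes, replicate 1 was the highest of the caterpillar-fed libraries in 44.3% and replicate 2 in 34.8%, against 10.9% for replicate 3 and 9.93% for replicate 4. Among the controls the same genes were highest in replicate 4 in 50.7% and in replicate 3 in 33.3%. The 2735 lowered genes had the reverse order: replicate 2 was the lowest caterpillar-fed library in 40%, and replicate 3 the lowest control in 49.3%. In both sets the libraries numbered 3 and 4 of the 2 groups thus tended to lie closer together than those numbered 1 and 2.

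**Figure D1:**
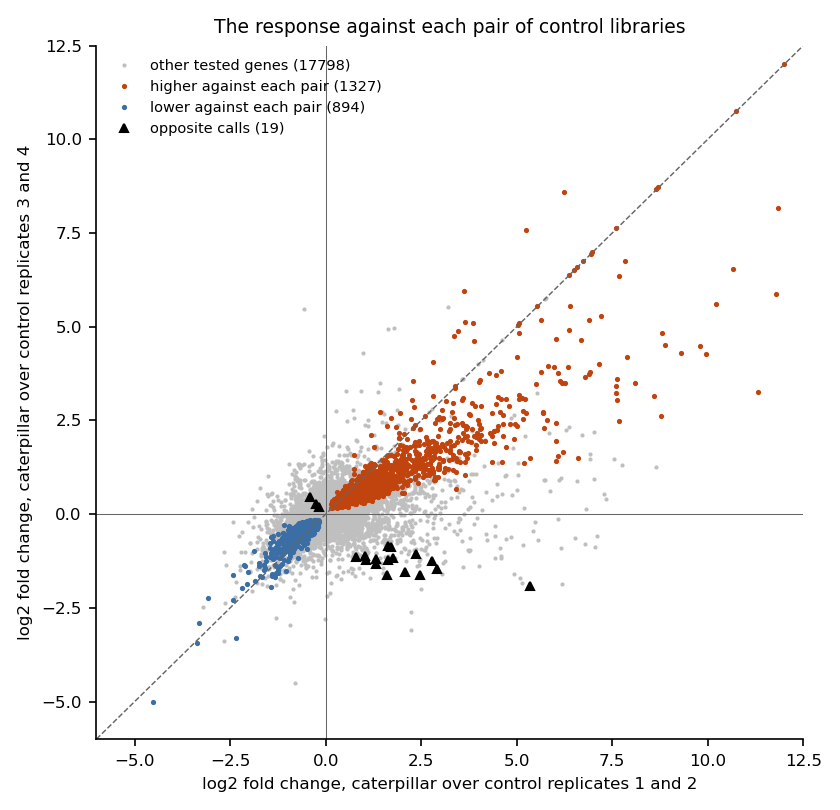
Each point is 1 of the 20038 tested genes, with its log2 fold change over control replicates 1 and 2 on the horizontal axis and over control replicates 3 and 4 on the vertical axis; the dashed line marks equality. The 1327 genes higher against each pair lie mostly below the line, that is, closer to 0 against replicates 3 and 4, and 19 genes (black triangles) were called in opposite directions.

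The steepest rises are given first, among genes that reached 5 CPM in either group without overlap. ILL5, a relative of amidohydrolases that split hormone-amino acid conjugates, had 44, 30.6, 8.35 and 15.4 CPM in caterpillar-fed plants, against 0, 0, 0 and 0 CPM in controls. With no count in any control, its rise was at least 628-fold, a bound set at 3 counts over the control group that covers counting error only. AT4G10290, annotated as a cupin-family protein, had 20.3, 9.47, 3.83 and 7.84 CPM in caterpillar-fed plants, against 0, 0, 0 and 0 CPM in controls, at least 266-fold higher by the same bound. Both genes had no count in any control library and were present in every caterpillar-fed one, with the highest level in replicate 1.

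TPS10 (AT2G24210), a terpene synthase, had 44.2, 15.9, 9.27 and 19.4 CPM in caterpillar-fed plants, against 0, 0, 0.0469 and 0.0938 CPM in controls. It rested on 1842 counts in caterpillar-fed plants and 3 in controls, a ratio of 576 with a 95% counting interval of 197 to 2796. BSMT1, which methylates salicylic and benzoic acid to volatile esters, had 182, 148, 79.4 and 92.3 CPM in caterpillar-fed plants, against 0.139, 0, 1.59 and 1.08 CPM in controls, a change of 7.46 ± 0.45 (edgeR adjusted p = 1.59e-10). Levels of both genes were highest in caterpillar-fed replicate 1, and neither came near them in any control.

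CYP94B3, a cytochrome P450 that hydroxylates jasmonoyl-isoleucine, had 22.6, 22.1, 7.36 and 12 CPM in caterpillar-fed plants, against 0.139, 0, 0 and 0.375 CPM in controls and rose by 6.88 ± 0.58 (edgeR adjusted p = 1.05e-08). CSLA01, a gene of the family of mannan synthases, had 473, 486, 197 and 278 CPM in caterpillar-fed plants, against 1.3, 0.238, 7.73 and 17.5 CPM in controls and rose by 5.74 ± 0.57 (edgeR adjusted p = 9.05e-08). Controls 3 and 4 held more CSLA01 than controls 1 and 2, yet the lowest caterpillar-fed library was still far above them. AT2G30830, a 2-oxoglutarate-dependent oxygenase, rose by 7.21 ± 0.54, the EF-hand gene AT1G76640 by 6.55 ± 0.69, the P450 gene CYP81D11 by 5.95 ± 0.40 and the defensin gene PDF1.2c by 6.85 ± 1.12 (edgeR adjusted p between 3.82e-10 and 5.45e-05).

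In absolute terms the largest gains per length, in FPKM, the deposited level scaled by gene length and library size, were led by a storage protein, a lipoxygenase and an enzyme of ascorbate recycling. VSP2, a vegetative storage protein with acid phosphatase activity, averaged 2382 FPKM in caterpillar-fed plants and 214 FPKM in controls, and the chloroplast 13-lipoxygenase LOX2 averaged 2392 FPKM in caterpillar-fed plants and 289 FPKM in controls. The last of these, DHAR1, averaged 2242 FPKM in caterpillar-fed plants and 359 FPKM in controls. VSP1, AT4G18440 (annotated as an aspartase-like protein), BGLU18, ARGAH2 and AT2G43530 (a knottin-like protein) made up the rest of the 8 largest gains. The 8 largest losses of FPKM were in RBCS1A, RCA, RBCS2B, RBCS1B and FBA2 of carbon fixation, the tonoplast aquaporin gene DELTA-TIP, the germin-like gene GER1 (AT1G72610) and the ferredoxin gene FD1.

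**Figure D2:**
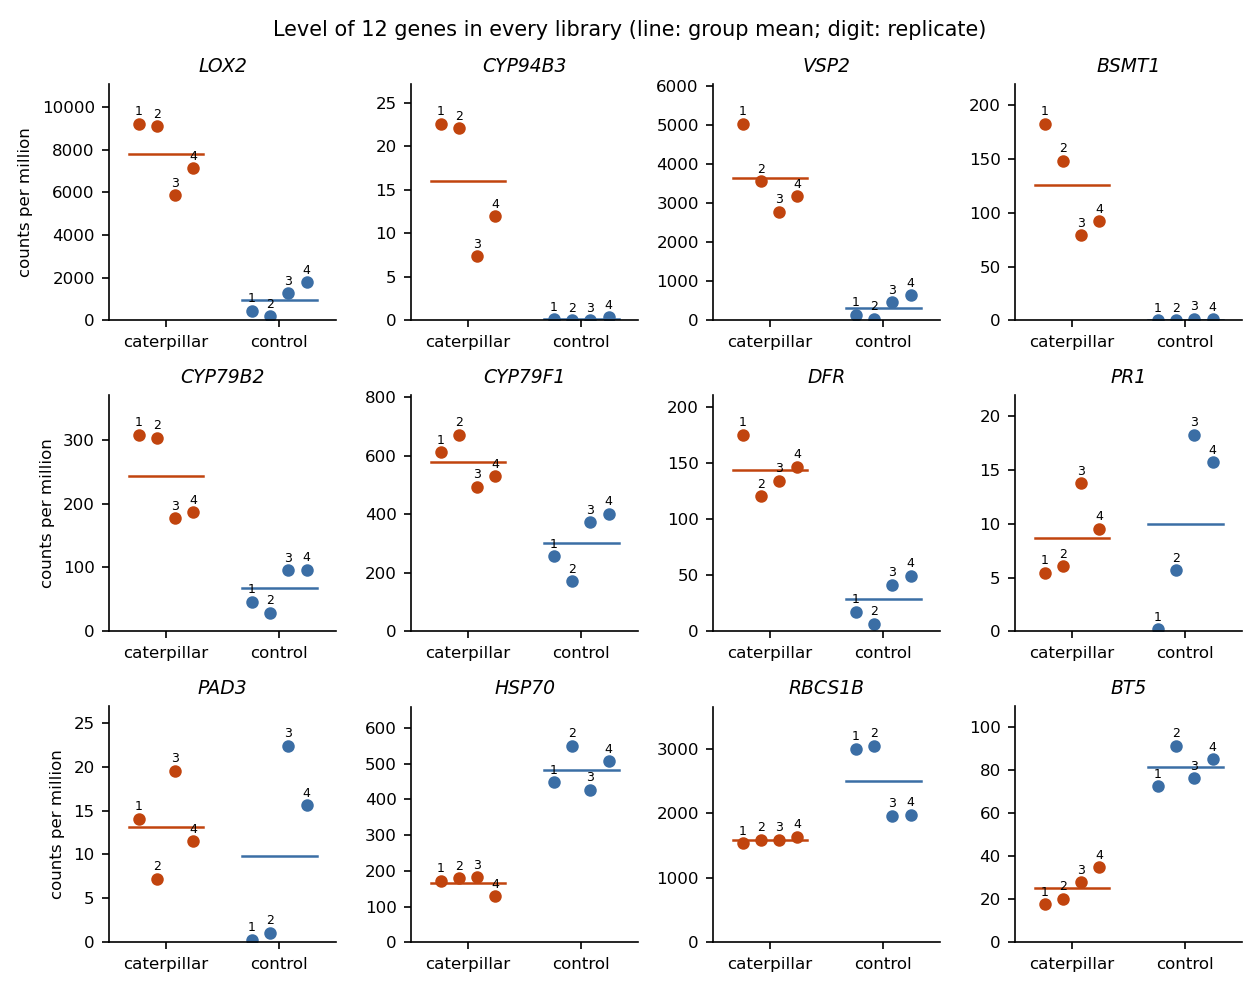
Level of 12 genes in CPM (vertical axes from 0) in each library: points are libraries with their replicate number, lines the group means, caterpillar-fed plants left and controls right. The jasmonate, glucosinolate and anthocyanin genes are separated between the groups in every library, PR1 and PAD3 overlap between the groups, with the control pairs far apart, and HSP70, RBCS1B and BT5 are lower in every caterpillar-fed library.

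Jasmonate synthesis genes rose at nearly every step. All 21 tested members were higher and 20 of them were higher against each control pair, with a median change of 1.47, where 14.2% of all tested genes were higher. LOX2 had 9221, 9096, 5864 and 7126 CPM in caterpillar-fed plants, against 462, 214, 1278 and 1805 CPM in controls, a change of 3.06 ± 0.39 (edgeR adjusted p = 2.05e-06). The smaller pair LOX3 and LOX4 rose further: LOX3 had 323, 326, 123 and 171 CPM in caterpillar-fed plants, against 13.3, 10.7, 19 and 15.5 CPM in controls (4.01 ± 0.30, edgeR adjusted p = 2.55e-09). In both genes every caterpillar-fed library lay above every control, and replicates 1 and 2 lay above replicates 3 and 4.

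After the lipoxygenases, AOS makes the unstable epoxide and AOC cyclases close its ring. AOS had 1552, 1760.2, 957 and 1087 CPM in caterpillar-fed plants, against 226, 156, 343 and 474 CPM in controls and rose by 2.16 ± 0.23 (edgeR adjusted p = 2.61e-07). The cyclase gene AOC1 rose by 3.66 ± 0.31, AOC2 by 3.13 ± 0.40, AOC3 by 2.68 ± 0.35 and AOC4 by 1.47 ± 0.18; AOC1 and AOC2 are near-identical neighbours whose reads the counting may have split. The reductase gene OPR3 rose by 2.42 ± 0.31, the peroxisomal ligase gene OPCL1 by 1.93 ± 0.22 and the acyl-CoA oxidase gene ACX1 by 1.45 ± 0.19. At the end of the chain JAR1, which joins jasmonic acid to isoleucine, had 88.7, 108, 54.9 and 69.7 CPM in caterpillar-fed plants, against 28.8, 29.7, 36 and 32.3 CPM in controls and rose by 1.34 ± 0.16 (edgeR adjusted p = 8.94e-07). Genes shared with general fatty acid breakdown changed less, with AIM1 at 0.56 ± 0.08 and ACX5 at 0.27 ± 0.08, the 1 member not called against each pair.

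The lipase gene DAD1, known for releasing the fatty acid precursor in anthers, had 1.51, 1.77, 0.331 and 0.999 CPM in caterpillar-fed plants, against 0.0464, 0, 0 and 0 CPM in controls. It rested on 97 counts against 1, a ratio of 91.0 with a 95% counting interval of 16.0 to 3631, so its size is not known closely.

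Genes for turnover of the hormone rose as well. Of 13 tested members 12 were higher, each of them against each control pair, and the median change was 3.17. Among all tested genes 14.2% were higher, and 6.62% against each pair. Besides CYP94B3 and ILL5, the hydroxylase gene CYP94B1 rose by 3.29 ± 0.39, the carboxylase gene CYP94C1 by 1.99 ± 0.31 and the amidohydrolase genes IAR3 and ILL6 by 2.09 ± 0.30 and 2.12 ± 0.25. JRG21, of the oxygenase family that oxidizes jasmonic acid, had 167, 114, 75.8 and 80.6 CPM in caterpillar-fed plants, against 0.0929, 1, 10.2 and 10.3 CPM in controls (4.33 ± 0.48, edgeR adjusted p = 3.52e-07). Its controls were split, with replicates 3 and 4 far above replicates 1 and 2, but the groups did not overlap. JMT, which makes volatile methyl jasmonate, rose by 2.33 ± 0.21, and the sulfotransferase gene ST2A by 2.87 ± 0.48. The exception was ST2B at −0.38 ± 0.16 (edgeR adjusted p = 0.077).

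Of the receptor, its repressors and their partners 13 of 18 were higher and none was lower, with 11 higher against each pair and a median of 1.23. Among all tested genes 14.2% were higher, and 6.62% against each pair. COI1 itself had 38.3, 40.3, 37.7 and 41 CPM in caterpillar-fed plants, against 40.3, 45.8, 40.0 and 43.4 CPM in controls, with overlap (−0.11 ± 0.07, edgeR adjusted p = 0.241). JAZ10 had 64.4, 67.3, 33.4 and 28.3 CPM in caterpillar-fed plants, against 4.5, 1.33, 7.03 and 9.81 CPM in controls and rose by 3.08 ± 0.36 (edgeR adjusted p = 8.94e-07). JAZ1 rose by 2.94 ± 0.33, JAZ5 by 2.79 ± 0.32, JAZ7 by 2.83 ± 0.42, JAZ8 by 2.33 ± 0.40, TIFY10B (JAZ2) by 1.78 ± 0.20, TIFY7 (JAZ9) by 1.71 ± 0.20 and JAZ6 by 1.52 ± 0.16. The adaptor gene NINJA rose by 0.46 ± 0.08, while JAZ4 (0.82 ± 0.42) and JAZ11 (0.38 ± 0.18) did not pass.

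Among the transcription factors 10 of 11 were higher, 6 of them against each control pair, where 14.2% and 6.62% of all tested genes were. MYC2 had 490.1, 475, 277 and 350.0 CPM in caterpillar-fed plants, against 68.8, 40.0, 131 and 142 CPM in controls, a rise of 2.06 ± 0.25 (edgeR adjusted p = 1.14e-06). MYC3 rose by 0.70 ± 0.08 and MYC4 was at 0.15 ± 0.09 (edgeR adjusted p = 0.218). NAC019, a factor induced by jasmonate and abscisic acid, had 18.3, 13.9, 7.29 and 9.49 CPM in caterpillar-fed plants, against 0.232, 0.238, 0.75 and 0.985 CPM in controls and rose by 4.44 ± 0.42. The repressing bHLH gene AIB (also known as JAM1) rose by 1.40 ± 0.17, so activators and repressors of the pathway were higher side by side.

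The G-box that MYC factors bind was looked up in the 250 bases before the annotated start of each gene, read from the RefSeq TAIR10.1 genome by locus tag. The letters CACGTG read the same on both strands. They occurred in 5.39% of the windows of all 37897 genes, in 7.38% of 19940 tested genes, in 12.4% of the raised genes and in 6.25% of the lowered genes. Among genes raised at least 2-fold the share was 15.7%, and among those lowered as much it was 6.3%. In the 4 jasmonate lists together 10 of 63 windows held it (15.9%). These were 5 of 18 for the receptor and repressors, 2 of 21 for synthesis, 2 of 11 for factors and 1 of 13 for turnover. Some lists with few or no raised genes held it more often: clock 47.1%, light harvesting 19%, Calvin cycle 17.6% and heat shock 17.6%. The raised anti-insect and volatile lists held it in 0 of 12 windows each. A match describes these letters only and shows no binding, and a window without one says nothing about more distant sites. The W-box TTGACC, bound by WRKY factors, was in 13.7% of raised, 10.4% of lowered and 12.1% of tested genes, and the GCC-box GCCGCC of ERF factors in 2.22%, 1.57% and 2%.

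Shown here, 5′ to 3′ along each gene and ending at the base before its start, are the windows of CYP81D11, a gene with a G-box among the steepest rises, and of the 4 jasmonate genes with a G-box and the smallest adjusted p, the last 4 chosen after their values were seen. The 4 jasmonate genes also had to be higher against each control pair, and windows that overlapped another gene were left out. Capitals mark the G-box.
CYP81D11 (chr3:10790554-10790803, minus strand): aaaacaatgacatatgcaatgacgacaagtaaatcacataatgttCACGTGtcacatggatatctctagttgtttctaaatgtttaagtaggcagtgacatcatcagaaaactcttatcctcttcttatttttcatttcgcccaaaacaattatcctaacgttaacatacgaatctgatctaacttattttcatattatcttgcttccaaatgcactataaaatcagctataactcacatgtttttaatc
NAC019 (chr1:19698483-19698732, minus strand): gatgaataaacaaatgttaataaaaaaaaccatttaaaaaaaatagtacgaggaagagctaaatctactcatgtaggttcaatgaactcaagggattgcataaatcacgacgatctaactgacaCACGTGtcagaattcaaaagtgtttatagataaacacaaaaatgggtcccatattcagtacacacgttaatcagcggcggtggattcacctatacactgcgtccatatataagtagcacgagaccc
AOS (chr5:17099596-17099845, minus strand): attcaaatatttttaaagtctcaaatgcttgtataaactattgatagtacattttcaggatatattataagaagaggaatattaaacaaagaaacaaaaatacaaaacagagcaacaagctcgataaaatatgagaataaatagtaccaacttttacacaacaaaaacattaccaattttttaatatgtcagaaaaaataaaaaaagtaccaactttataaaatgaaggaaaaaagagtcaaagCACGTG
TIFY10B (chr1:28150447-28150696, minus strand): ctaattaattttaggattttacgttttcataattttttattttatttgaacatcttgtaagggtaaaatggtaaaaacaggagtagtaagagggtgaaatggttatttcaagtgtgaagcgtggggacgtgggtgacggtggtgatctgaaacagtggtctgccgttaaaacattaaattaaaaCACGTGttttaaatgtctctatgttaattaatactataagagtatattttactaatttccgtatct
ACX1 (chr4:9428896-9429145, minus strand): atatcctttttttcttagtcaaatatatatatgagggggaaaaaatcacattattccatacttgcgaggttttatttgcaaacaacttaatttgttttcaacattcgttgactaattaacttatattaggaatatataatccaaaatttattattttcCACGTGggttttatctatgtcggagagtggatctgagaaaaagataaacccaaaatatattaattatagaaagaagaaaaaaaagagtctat
The G-box began 205 bases before the start in CYP81D11, 126 in NAC019, 6 in AOS, 66 in TIFY10B and 92 in ACX1, so it had no common distance.
Among the 10 steepest rises 2 windows held a G-box, and among the 10 steepest falls 1. Raised windows were printed only if they held a G-box and lowered ones whether or not they did, so the printed windows do not compare the 2 sets. Windows of 2 of the 10 steepest falls overlapped another gene and were left out. The 2 lowered windows shown held none of the 5 motifs searched (the 3 above, the heat shock element GAANNTTC and the evening element AAAATATCT).
CER4 (chr4:16207957-16208206, minus strand): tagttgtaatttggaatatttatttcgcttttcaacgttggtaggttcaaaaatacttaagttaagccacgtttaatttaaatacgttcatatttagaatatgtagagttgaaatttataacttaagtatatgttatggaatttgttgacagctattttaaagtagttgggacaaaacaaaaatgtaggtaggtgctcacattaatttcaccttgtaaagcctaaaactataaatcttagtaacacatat
HSP17.6II (chr5:3883112-3883361, minus strand): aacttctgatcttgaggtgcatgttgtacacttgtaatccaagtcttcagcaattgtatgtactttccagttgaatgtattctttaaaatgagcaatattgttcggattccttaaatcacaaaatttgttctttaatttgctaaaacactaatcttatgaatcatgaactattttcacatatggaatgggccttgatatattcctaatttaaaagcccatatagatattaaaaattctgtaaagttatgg

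Genes for anti-insect proteins and other jasmonate outputs, listed together, reached high summed levels. The 12 tested members, whose lengths FPKM takes into account, summed to 6357 to 11130.0 FPKM in caterpillar-fed plants, against 347 to 1881 FPKM in controls. Of these members 9 were higher and 1 lower, where 14.2% and 13.6% of all tested genes were. VSP2 had 5024, 3563, 2783 and 3167 CPM in caterpillar-fed plants, against 145, 42.5, 475 and 638 CPM in controls (3.48 ± 0.50, edgeR adjusted p = 1.18e-05). CORI3, a cystine lyase, had 2519.6, 2091, 1258 and 1579 CPM in caterpillar-fed plants, against 31.1, 14, 101 and 146 CPM in controls (4.67 ± 0.47, edgeR adjusted p = 1.17e-07). ARGAH2, an arginase, had 4596, 4361, 2700.3 and 3300.0 CPM in caterpillar-fed plants, against 373, 238, 706 and 972 CPM in controls (2.71 ± 0.29, edgeR adjusted p = 2.61e-07). All 3 genes were highest in caterpillar-fed replicate 1 and lowest in control replicate 2, without overlap.

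NATA1 makes N-delta-acetylornithine from ornithine, the product of arginase. It had 641, 447, 361 and 369 CPM in caterpillar-fed plants, against 0.464, 0.428, 24 and 22.9 CPM in controls, a rise of 5.25 ± 0.61 that was 9.95 against controls 1 and 2 and 4.27 against controls 3 and 4. THI2.1, a thionin, rose by 1.81 ± 0.38, the lectin gene JR1 by 1.71 ± 0.31 and the chlorophyllase gene CLH1 by 2.30 ± 0.30. TAT3, a tyrosine aminotransferase, had 474, 502, 409 and 308 CPM in caterpillar-fed plants, against 5.11, 9.14, 257 and 292 CPM in controls. Its controls 3 and 4 lay under every caterpillar-fed library, close only to the lowest, replicate 4, and its controls 1 and 2 far below. TAT3 passed against the first pair (5.87) and not against all 4 controls (1.59 ± 0.67, edgeR adjusted p = 0.0824). The other arginase gene, ARGAH1, was at 0.02 ± 0.08. OMR1, a threonine deaminase, had 83.7, 87.8, 87.4 and 88.4 CPM in caterpillar-fed plants, against 104, 115, 105 and 99.9 CPM in controls and was the 1 member that fell (−0.29 ± 0.06, edgeR adjusted p = 0.00129).

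Of the protease inhibitor genes 6 of 9 were higher, where 14.2% of all tested genes were, and 5 were higher against each control pair. AT1G73325, annotated as a Kunitz-type inhibitor, had 104, 115, 64.5 and 86.4 CPM in caterpillar-fed plants, against 6.73, 1.71, 16.1 and 23.6 CPM in controls and rose by 2.94 ± 0.35 (edgeR adjusted p = 8.83e-07). The trypsin inhibitor gene TI1 rose by 2.16 ± 0.31, and AT2G38870 and the cystatin gene CYSB by 0.77 ± 0.12 and 0.50 ± 0.08. AT5G43570, of the potato inhibitor I type, had 78 counts against 2, a ratio of 36.6 with a 95% counting interval of 9.80 to 308. KTI1 overlapped between the groups (−0.17 ± 0.52, edgeR adjusted p = 0.847) and so did DR4 (−0.26 ± 0.27, edgeR adjusted p = 0.522).

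Volatile synthesis had the largest median of the lists other than cell type markers, 3.71. Of its 12 genes 11 were higher, where 14.2% of all tested genes were. TPS04, which makes geranyllinalool, had 114, 117, 56.8 and 56.8 CPM in caterpillar-fed plants, against 1.16, 1.09, 29.2 and 25.1 CPM in controls (2.60 ± 0.58, edgeR adjusted p = 0.00131), and CYP82G1, which turns it into the homoterpene TMTT, had 4.07, 4.51, 1.8 and 1.96 CPM in caterpillar-fed plants, against 0.0464, 0.0476, 0.891 and 0.141 CPM in controls (3.38 ± 0.57, edgeR adjusted p = 7.57e-05). Control replicates 3 and 4 held more of both than replicates 1 and 2, and the groups stayed apart. In the green leaf volatile branch the hydroperoxide lyase gene HPL1 rose by 1.97 ± 0.24 and the hexenyl acetate synthase gene CHAT by 4.05 ± 0.40. LAS1, a lanosterol synthase listed here among terpenoid genes, rose by 5.33 ± 0.62. TPS14 was at 0.23 ± 0.77 (edgeR adjusted p = 0.866).

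Glucosinolate genes rose at steps from amino acid supply to transport. All 7 tryptophan synthesis genes were higher, each against each control pair, with ASA1, the first step, at 1.54 ± 0.21. Of the indole glucosinolate genes 15 of 18 were higher and of the aliphatic ones 24 of 27, with 1 lower. Among all tested genes 14.2% were higher and 13.6% lower. The medians of these lists were 1.11 and 0.65. Against control replicates 3 and 4 alone 12 indole and 18 aliphatic genes were higher and none was lower. The medians were then 0.796 and 0.415. CYP79B2, which turns tryptophan into its aldoxime, had 308, 303, 177 and 187 CPM in caterpillar-fed plants, against 46.7, 29.5, 96.2 and 96.5 CPM in controls (1.86 ± 0.25, edgeR adjusted p = 5.50e-06). CYP79F1, which does the same for chain-elongated methionine, had 611, 671, 495 and 531 CPM in caterpillar-fed plants, against 258, 172, 374 and 402 CPM in controls (0.94 ± 0.16, edgeR adjusted p = 1.16e-04). In both genes the 4 caterpillar-fed libraries lay above all controls, but for CYP79F1 the gap to control replicate 4 was narrow.

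Regulators of the indole branch differed from each other. MYB34 had 121, 113, 67 and 69.7 CPM in caterpillar-fed plants, against 30.3, 30.7, 33 and 36.9 CPM in controls and rose by 1.50 ± 0.19 (edgeR adjusted p = 1.63e-06), while MYB51 had 3.08, 3.04, 3.83 and 2.65 CPM in caterpillar-fed plants, against 3.85, 4.19, 5.58 and 3.61 CPM in controls, with overlap (−0.45 ± 0.19, edgeR adjusted p = 0.0832). Downstream, the genes for modifying the indole ring split likewise: CYP81F4 rose by 2.13 ± 0.37 and the methyltransferase genes IGMT5 and IGMT1 by 1.85 ± 0.40 and 1.15 ± 0.18, whereas CYP81F2 was at −0.05 ± 0.35 (edgeR adjusted p = 0.941). The genes for the core structure, CYP83B1 at 1.18 ± 0.20, GGP1 at 1.54 ± 0.19, SOT16 at 1.22 ± 0.18 and UGT74B1 at 0.73 ± 0.14, were all higher.

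In the aliphatic branch the 3 MYB regulators did not move together. MYB28 had 73.1, 67.7, 76.8 and 69.9 CPM in caterpillar-fed plants, against 99.6, 98.8, 81 and 84.5 CPM in controls and fell (−0.34 ± 0.08, edgeR adjusted p = 0.00232), MYB29 rose by 0.38 ± 0.13 and MYB76 by 1.96 ± 0.26. MYB28 was below every control in each caterpillar-fed library, though its fall did not pass against control replicates 3 and 4 alone (−0.20, edgeR adjusted p = 0.139). Chain elongation rose, with MAM1 at 1.13 ± 0.18 and IMD1 at 0.98 ± 0.17, and so did side-chain oxidation, with FMO GS-OX2 at 1.34 ± 0.19 and FMO GS-OX4 at 1.04 ± 0.17. Of the transporters that load glucosinolates into the phloem, GTR1 rose by 0.92 ± 0.12 and GTR2 by 0.40 ± 0.13. IMS2, also called MAM3, was at 0.27 ± 0.20 and FMO GS-OX5 at 0.07 ± 0.06, and neither passed.

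The breakdown system was higher in 16 of 19 members, where 14.2% of all tested genes were. The leaf myrosinase gene TGG1 had 3963, 3388, 3639 and 3602 CPM in caterpillar-fed plants, against 1856, 2189, 2802 and 2671 CPM in controls (0.62 ± 0.09, edgeR adjusted p = 9.27e-06), and TGG2 rose by 0.83 ± 0.12. Specifier proteins steer the products: ESP, which favours nitriles and epithionitriles, rose by 1.13 ± 0.16, and the nitrile specifiers NSP1, NSP4 and NSP5 by 1.42 ± 0.23, 0.98 ± 0.19 and 0.49 ± 0.07. ESM1, which favours isothiocyanates, had 896, 927, 1042 and 951 CPM in caterpillar-fed plants, against 1082, 1128, 931 and 959 CPM in controls, with overlap (−0.10 ± 0.07, edgeR adjusted p = 0.26). BGLU18, a beta-glucosidase of wound-induced endoplasmic reticulum bodies, had 4167, 3894, 3046 and 3256 CPM in caterpillar-fed plants, against 549, 253, 1246 and 1792 CPM in controls and rose by 1.90 ± 0.33 (edgeR adjusted p = 9.14e-05). With it rose NAI1 (1.42 ± 0.18), the factor that sets up these bodies, and TSA1 (AT1G52410, 1.84 ± 0.31), one of their proteins.

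Of the sulfur supply genes 14 of 18 were higher, where 14.2% of all tested genes were. The adenosine phosphosulfate reductase gene APR1 had 300.1, 343, 244 and 283 CPM in caterpillar-fed plants, against 111, 80.0, 172 and 169 CPM in controls (1.14 ± 0.16, edgeR adjusted p = 6.54e-06) and the kinase genes APK and AKN2, which make the sulfate donor for glucosinolates, rose by 1.02 ± 0.15 and 1.02 ± 0.20. Isoforms differed: APR2 was at 0.13 ± 0.09 and APS2 (AT1G19920) at 0.06 ± 0.05, and neither passed. ATSDI1, a gene induced by sulfur shortage, rose by 2.84 ± 0.22 and LSU1 by 2.03 ± 0.33.

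**Figure D3:**
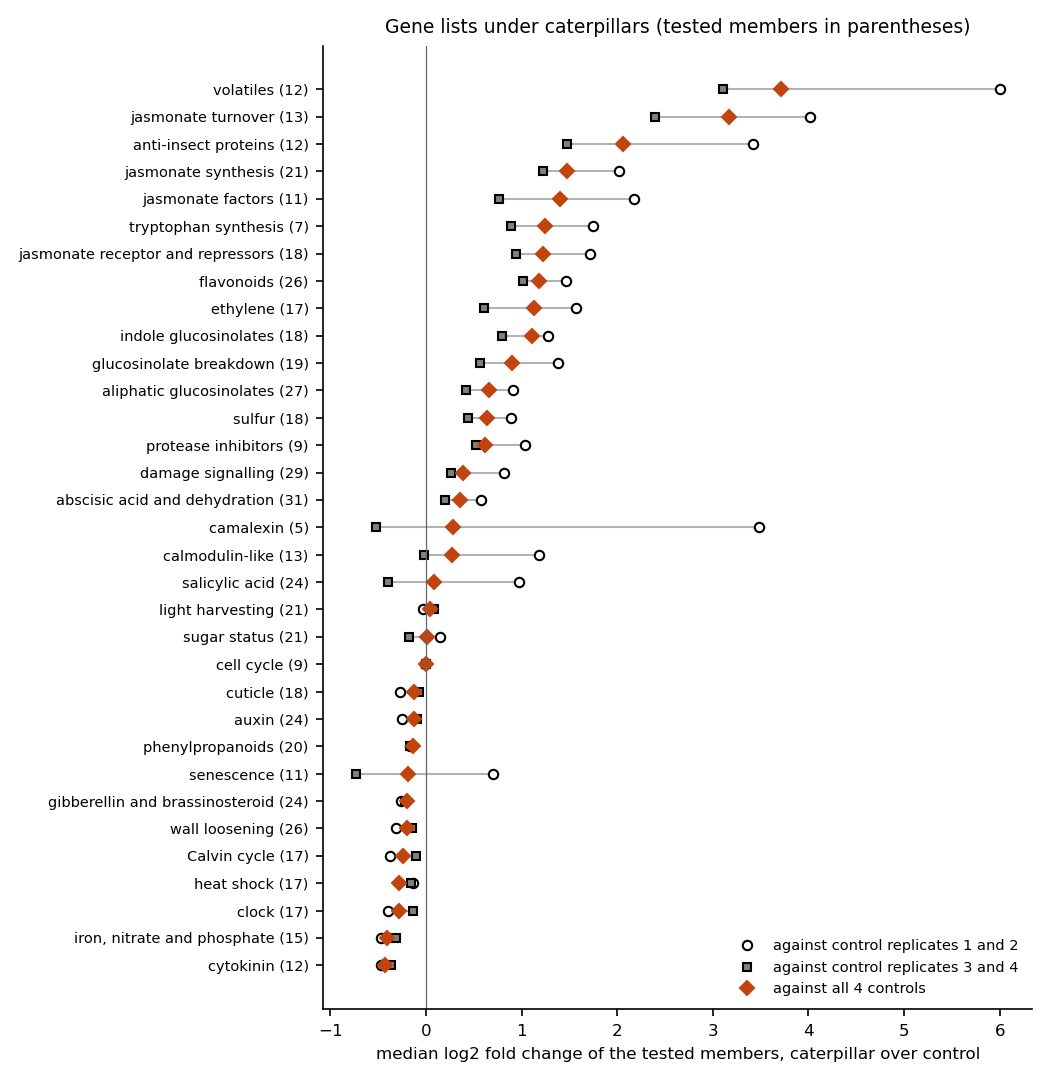
Median log2 fold change of the tested members of 33 gene lists, against all 4 controls (diamonds), against control replicates 1 and 2 (open circles) and against replicates 3 and 4 (squares); vertical order by the first. Jasmonate, volatile and glucosinolate lists lie above 0 by either pair, while the medians of the salicylic acid, camalexin, senescence, calmodulin-like, sugar, light-harvesting and cell cycle lists by the 2 pairs lie on opposite sides of 0.

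Of 26 flavonoid genes 19 were higher, 17 of them against each pair, and 2 lower. Among all tested genes 14.2% were higher, 6.62% against each pair, and 13.6% lower. DFR, which commits flux to anthocyanins, had 175, 120.3, 134 and 147 CPM in caterpillar-fed plants, against 17.7, 6.9, 41.6 and 49.7 CPM in controls (2.31 ± 0.32, edgeR adjusted p = 5.74e-06), and its regulator PAP1 (AT1G56650) had 42.5, 39.3, 23.5 and 30.7 CPM in caterpillar-fed plants, against 3.53, 0.809, 7.92 and 8.26 CPM in controls (2.72 ± 0.34, edgeR adjusted p = 1.83e-06). LDOX rose by 2.26 ± 0.32, UF3GT by 2.67 ± 0.33, AT5MAT by 2.32 ± 0.28 and GSTF12 by 2.06 ± 0.27. Chalcone synthase, TT4, rose by 0.72 ± 0.09, and the flavonol synthase gene FLS1 had 41.7, 45, 40.6 and 47.3 CPM in caterpillar-fed plants, against 54.5, 62.1, 54.7 and 56.7 CPM in controls and fell (−0.38 ± 0.10, edgeR adjusted p = 0.00555). FLS1 and CHIL (−0.32 ± 0.10) fell below all controls in each caterpillar-fed library, but neither passed against control replicates 3 and 4 alone (−0.35 and −0.25).

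Lignin and sinapate genes went the other way in part: of 20 phenylpropanoid genes 7 were lower and 5 higher, where 13.6% of all tested genes were lower, and all 7 were lower against each control pair. The hydroxylase gene CYP98A3 had 66, 62.2, 60.3 and 63.7 CPM in caterpillar-fed plants, against 106, 97.6, 87.9 and 84.4 CPM in controls (−0.58 ± 0.06, edgeR adjusted p = 2.69e-07). ATCAD4, a cinnamyl alcohol dehydrogenase, fell (−0.56 ± 0.07), as did HCT (−0.43 ± 0.05) and 4CL1 (−0.46 ± 0.06). The entry genes parted, with PAL1 at 0.34 ± 0.10 and PAL2 at −0.36 ± 0.06. CCR2 (AT1G80820), a pathogen-induced reductase, rose by 1.89 ± 0.37, and CAD5 by 0.87 ± 0.16.

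In the ethylene branch 9 of 17 genes were higher and 1 lower, and against control replicates 3 and 4 alone 5 were higher and none lower. Among all tested genes 14.2% were higher, and 7.41% against replicates 3 and 4 alone. The defensin gene PDF1.2 had 24.7, 8.68, 8.83 and 74.6 CPM in caterpillar-fed plants, against 0.232, 0, 2.02 and 1.22 CPM in controls (5.08 ± 0.80, edgeR adjusted p = 3.29e-05). Its spread among caterpillar-fed plants was wide, with replicate 4 far above the others. PDF1.2c followed the same order, although the near-identical copies may share reads. ORA59, the factor that drives them, had 1.1, 0.343, 1.51 and 1.77 CPM in caterpillar-fed plants, against 0.279, 0.238, 0.984 and 0.282 CPM in controls, with overlap (1.42 ± 0.43, edgeR adjusted p = 0.0147), a call that was lost against control replicates 3 and 4 (0.92, edgeR adjusted p = 0.262). PR4 was at 0.29 ± 0.28 (edgeR adjusted p = 0.493), with 1.35 by control replicates 1 and 2 and −0.32 by replicates 3 and 4, and ERF1 at 1.50 ± 0.63 (edgeR adjusted p = 0.0815).

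Salicylic acid and camalexin genes depended on the pair of controls. Against all 4 controls 2 of 24 salicylic acid genes were higher, against replicates 1 and 2 alone 15 and against replicates 3 and 4 alone 1. None was lower. Of all tested genes 14.2%, 16.3% and 7.41% were higher in these comparisons. The median change was 0.97 by the first pair and −0.40 by the second. PR1, the usual marker gene, had 5.46, 6.08, 13.8 and 9.57 CPM in caterpillar-fed plants, against 0.232, 5.66, 18.3 and 15.7 CPM in controls. All caterpillar-fed libraries lay above control replicate 1 and below replicates 3 and 4, with control replicate 2 among them. The difference was 1.58 against the first pair and −0.93 against the second, and neither passed (edgeR adjusted p = 0.108 and 0.269).

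PAD3, the last enzyme of the phytoalexin camalexin, had 14.1, 7.26, 19.5 and 11.5 CPM in caterpillar-fed plants, against 0.325, 1.09, 22.4 and 15.6 CPM in controls. It passed against control replicates 1 and 2 (4.18, edgeR adjusted p = 8.36e-05) and not against replicates 3 and 4 (−0.53, edgeR adjusted p = 0.514). EPS1, which splits the isochorismate conjugate to salicylic acid, had 20.9, 18.7, 13.4 and 13.8 CPM in caterpillar-fed plants, against 6.18, 6, 8.91 and 8.54 CPM in controls and was the 1 gene of the list higher against each pair (1.16 ± 0.20, edgeR adjusted p = 7.43e-05). GRX480, a glutaredoxin that links salicylic acid and jasmonate signals, rose by 1.96 ± 0.48, but against replicates 3 and 4 alone it was at 1.04 (edgeR adjusted p = 0.063). The synthesis gene EDS16 (ICS1) was at 0.19 ± 0.20 and the signalling gene PAD4 at 0.09 ± 0.34, with overlap in each. The median of the camalexin list was 3.48 by the first pair and −0.53 by the second, and no member of either list was called lower by either pair.

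**Figure D4:**
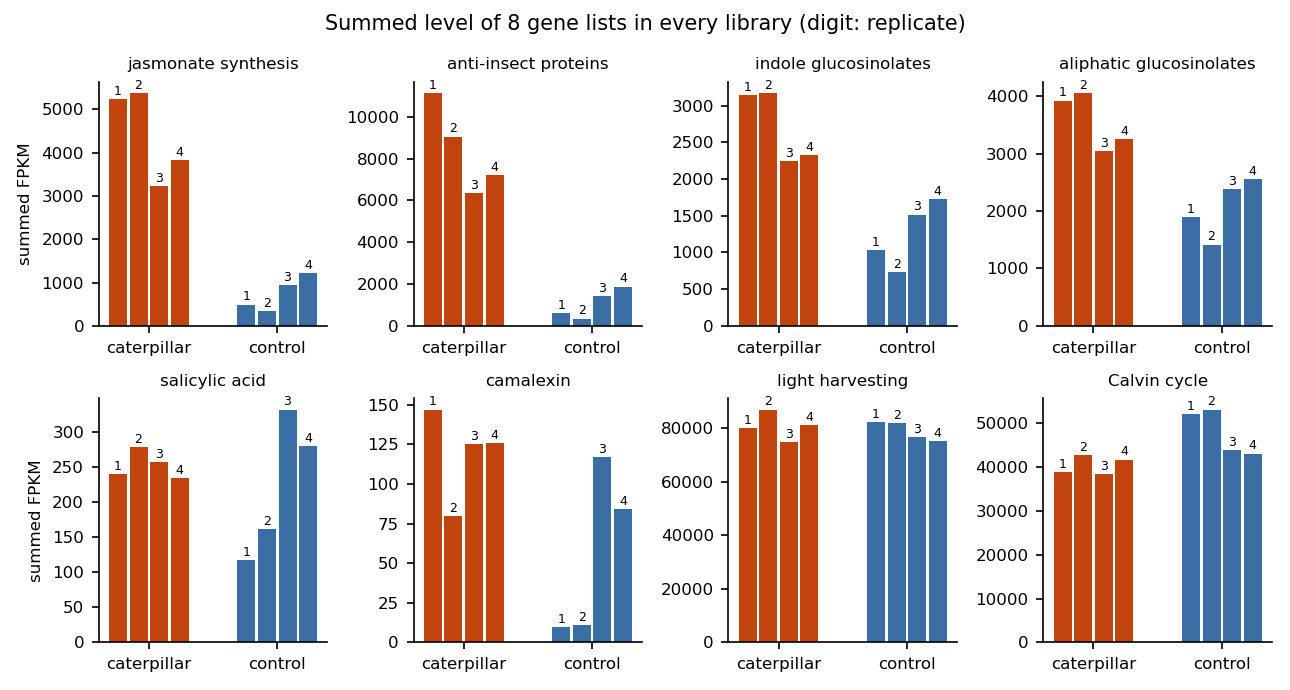
Summed FPKM of the tested members of 8 gene lists in each library (bars from 0, replicate number on top, caterpillar-fed plants left, controls right); the sums are carried mostly by the most abundant members. The anti-insect list also holds other jasmonate outputs. Jasmonate, anti-insect and glucosinolate sums are higher in all 4 caterpillar-fed libraries. The salicylic acid, camalexin and light harvesting sums overlap between the groups. The Calvin cycle sum is lower in all 4 caterpillar-fed libraries, narrowly against control replicates 3 and 4.

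Several genes of damage perception rose. Of 29 genes 14 were higher, and 7 against each pair, where 14.2% and 6.62% of all tested genes were. The receptor gene PEPR2 of the wound peptides Pep had 14.1, 11.5, 10.1 and 11 CPM in caterpillar-fed plants, against 3.81, 2.57, 4.92 and 4.97 CPM in controls (1.51 ± 0.19, edgeR adjusted p = 2.36e-06), and PEPR1 rose by 0.61 ± 0.12. GLR3.3, a glutamate receptor-like channel of long-distance wound signals, rose by 0.84 ± 0.10, and the extracellular ATP receptor gene LecRK-I.9 by 0.93 ± 0.18. RBOHD, the oxidase of the reactive oxygen burst, had 189, 169, 123 and 138 CPM in caterpillar-fed plants, against 58, 55, 79.3 and 83.5 CPM in controls (1.16 ± 0.14, edgeR adjusted p = 7.49e-07). WRKY40 rose by 2.09 ± 0.39 and RHL41 (ZAT12) by 1.99 ± 0.27. The flagellin receptor gene FLS2 (AT5G46330) was at 0.09 ± 0.16, the chitin receptor gene CERK1 at 0.11 ± 0.13 and FRK1, a marker of pattern-triggered immunity, at −0.34 ± 0.56, and none of these passed. Of the calmodulin-like genes 5 of 13 were higher, 2 of them against replicates 3 and 4 alone, with CML38 at 3.81 ± 0.42, and CML37 at 1.53 ± 0.52; the touch gene TCH2 was at −0.33 ± 0.13 (edgeR adjusted p = 0.0519).

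Abscisic acid and dehydration genes were 12 higher and 4 lower of 31, beside 14.2% higher and 13.6% lower of all tested genes. Against control replicates 3 and 4 alone 10 were higher and 1 lower. NCED3, the rate-limiting step of stress-induced synthesis, had 18.1, 15.2, 6.88 and 8.57 CPM in caterpillar-fed plants, against 2.6, 4.09, 4.36 and 4.79 CPM in controls (1.60 ± 0.30, edgeR adjusted p = 2.31e-04). KIN1, a cold- and dehydration-induced protein, had 10.3, 9.61, 11.8 and 7.15 CPM in caterpillar-fed plants, against 0.139, 0.143, 0.422 and 0.328 CPM in controls (5.20 ± 0.34, edgeR adjusted p = 2.41e-10), with all caterpillar-fed libraries close together and far above the controls. HAI1, a phosphatase that damps the signal, rose by 2.80 ± 0.36, RD26 by 2.00 ± 0.30, COR15A by 1.99 ± 0.23 and the galactinol synthase gene GolS1 by 2.10 ± 0.39. ERD5 (PRODH1), which degrades proline, fell (−0.81 ± 0.15, edgeR adjusted p = 2.55e-04), and so did the receptor gene PYL5 (−0.48 ± 0.16, edgeR adjusted p = 0.0235).

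Heat shock chaperones were among the clearest decreases. Of 17 genes 6 were lower and 2 higher, where 13.6% and 14.2% of all tested genes were. Against control replicates 3 and 4 alone 5 were lower and 1 higher. HSP70 had 173, 179, 183 and 129 CPM in caterpillar-fed plants, against 448, 550.0, 428 and 508 CPM in controls (−1.54 ± 0.12, edgeR adjusted p = 2.55e-09). HSP90.1 had 47.7, 47.6, 42.9 and 33.1 CPM in caterpillar-fed plants, against 71.2, 94.5, 96.7 and 105 CPM in controls (−1.10 ± 0.12, edgeR adjusted p = 3.14e-07). Every caterpillar-fed library lay below every control for both genes, the control pairs overlapped for HSP70, and the change of HSP70 was −1.61 against replicates 1 and 2 and −1.49 against replicates 3 and 4. The small heat shock genes HSP17.4 and HSP17.6II fell (−1.51 ± 0.25 and −1.80 ± 0.33), as did the peptidyl-prolyl isomerase gene AT5G48570 (−1.44 ± 0.13) and HSFA7A (−1.34 ± 0.33). EGY3, a protease-like protein induced by heat, had 9.3, 14, 11.9 and 11.5 CPM in caterpillar-fed plants, against 24, 37.8, 45 and 44.8 CPM in controls and fell (−1.70 ± 0.15, edgeR adjusted p = 2.66e-08). Against them the co-chaperone gene BAG6 rose by 0.96 ± 0.17 and HSF4 (HSFB1) by 0.96 ± 0.20; HSP18.2 was at 0.21 ± 0.22 and HSP101 at −0.28 ± 0.14, without a call.

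Carbon fixation genes were mostly lower, while most light-harvesting genes had no call. Of 17 Calvin cycle genes 14 were lower and none higher, while of 21 light-harvesting and photosystem genes 2 were higher and none lower. Among all tested genes 13.6% were lower and 14.2% higher. RBCS1B, a Rubisco small subunit, had 1537, 1593, 1591 and 1636 CPM in caterpillar-fed plants, against 3001, 3044, 1964 and 1979 CPM in controls (−0.65 ± 0.12, edgeR adjusted p = 2.10e-04). The caterpillar-fed libraries were nearly equal and lay below every control, nearest to replicates 3 and 4. CA2, a carbonic anhydrase, fell (−0.44 ± 0.07), as did RBCS1A (−0.24 ± 0.06). All 17 Calvin cycle members were lower against control replicates 1 and 2, but only 2, RBCS1B and CA2, against replicates 3 and 4, with medians of −0.37 and −0.10. Of the light-harvesting list 1 was higher and 2 lower against the first pair, and 2 higher and none lower against the second. Its medians were −0.033 and 0.083. Of all tested genes 16.3% were higher and 18.2% lower against the first pair, and 7.41% and 5.04% against the second. CAB1, a light-harvesting protein, had 15051, 15408, 13599 and 14156 CPM in caterpillar-fed plants, against 15217, 14020.0, 13322 and 12904 CPM in controls, with overlap (0.07 ± 0.06, edgeR adjusted p = 0.445), and LHB1B1 rose by 0.48 ± 0.09.

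Of 26 expansin and XTH genes, which loosen the wall, 11 were lower and 3 higher, where 13.6% and 14.2% of all tested genes were. Against control replicates 3 and 4 alone 5 were lower and 3 higher. EXPA8 had 27.4, 37.6, 34.8 and 44.8 CPM in caterpillar-fed plants, against 58.1, 83.3, 83.2 and 58.9 CPM in controls (−0.97 ± 0.17, edgeR adjusted p = 9.83e-05), and XTH17 had 2.56, 0.883, 4.75 and 1.58 CPM in caterpillar-fed plants, against 9.47, 10.4, 6.75 and 7.84 CPM in controls (−1.79 ± 0.33, edgeR adjusted p = 2.31e-04). EXPA10, by contrast, had 146, 124, 98.2 and 103 CPM in caterpillar-fed plants, against 43, 41.8, 54.2 and 55.4 CPM in controls and rose (1.28 ± 0.11, edgeR adjusted p = 2.52e-08). The aquaporin gene DELTA-TIP, which serves water flow into the vacuole, fell (−1.08 ± 0.10, edgeR adjusted p = 2.85e-08). AT1G62510, annotated as a lipid-transfer-like protein, had 35.5, 50.4, 65.9 and 45.4 CPM in caterpillar-fed plants, against 192, 249.8, 188 and 199.6 CPM in controls (−2.07 ± 0.21, edgeR adjusted p = 1.10e-07).

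Of the auxin genes 7 of 24 were lower and 3 higher, where 13.6% and 14.2% of all tested genes were. IAA7 was at −0.51 ± 0.07 and the shade-responsive factor gene HB-2 at −0.56 ± 0.10. GH3.3, which conjugates auxin to amino acids, was at 1.29 ± 0.22. Of 8 tested type-A cytokinin response regulators, which report the hormone's action, 6 were lower, among them ARR15, which had 7.21, 6.97, 6.95 and 9.41 CPM in caterpillar-fed plants, against 17.6, 18.9, 13.2 and 13 CPM in controls (−1.03 ± 0.14, edgeR adjusted p = 6.54e-06). CKX5, a cytokinin oxidase, rose by 1.74 ± 0.21. Against control replicates 3 and 4 alone 3 auxin genes were lower and 1 higher, and 4 type-A regulators were lower. Of all tested genes 5.04% were lower and 7.41% higher against that pair. In the gibberellin and brassinosteroid list 8 of 24 were lower and 4 higher (5 and 3 against replicates 3 and 4 alone): the DELLA gene RGL3 rose by 2.17 ± 0.24 and the receptor genes GID1A and GID1B by 1.07 ± 0.14 and 1.12 ± 0.18, while the DELLA gene RGA1 fell (−0.28 ± 0.07, edgeR adjusted p = 0.00354). None of the 9 cell cycle genes passed, and their median was −0.01.

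Of 18 cuticle genes 6 were lower and 4 higher, where 13.6% and 14.2% of all tested genes were. Their balance turned with the controls, since 10 were lower and 4 higher against replicates 1 and 2 alone, but 2 lower and 4 higher against replicates 3 and 4 alone. CER4, which makes primary alcohols of the wax, had 0.523, 0.883, 1.69 and 1.92 CPM in caterpillar-fed plants, against 9.19, 12.6, 6.14 and 6.1 CPM in controls and the lowest log2 fold change among lowered genes that reached 5 CPM in either group without overlap (−2.70 ± 0.39, edgeR adjusted p = 1.26e-05). CER3, of the alkane branch, rose by 0.53 ± 0.10. Sugar-related genes split, 5 higher and 6 lower of 21: BT5 had 17.8, 20.4, 28 and 34.9 CPM in caterpillar-fed plants, against 72.6, 91.3, 76.3 and 85.2 CPM in controls (−1.67 ± 0.14, edgeR adjusted p = 7.07e-09), BT2 fell (−1.53 ± 0.24) and BT4 rose by 2.16 ± 0.25, although all belong to 1 family of BTB-TAZ scaffold proteins. DIN10 fell (−1.20 ± 0.15) and DIN11 rose (2.30 ± 0.34), and the beta-amylase gene BAM5 rose by 3.14 ± 0.50.

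Of 17 clock genes 8 were lower and 1 higher, with 4 lower against control replicates 3 and 4 alone. Among all tested genes 13.6% were lower and 14.2% higher, and against replicates 3 and 4 alone 5.04% and 7.41%. LHY had 406, 396, 388 and 399 CPM in caterpillar-fed plants, against 504, 536, 462 and 464 CPM in controls (−0.31 ± 0.05, edgeR adjusted p = 1.16e-04), CCA1 and RVE1 fell (−0.32 ± 0.06 and −0.67 ± 0.10), while of the evening genes PCL1 (LUX) fell (−0.74 ± 0.18) and TOC1 was at −0.02 ± 0.10 (edgeR adjusted p = 0.884). Among nutrient genes 7 of 15 were lower and 2 higher, with 4 lower against control replicates 3 and 4 alone. NIA2, the main nitrate reductase, fell (−0.40 ± 0.07), and the iron shortage genes OPT3, BTS and BHLH101 fell (−0.43 ± 0.07, −0.38 ± 0.08 and −1.27 ± 0.38). Of the senescence genes 4 of 11 were higher and 1 lower: the pheophytinase gene PPH rose by 1.31 ± 0.13 and ACD1 by 0.82 ± 0.13, both of chlorophyll breakdown, and SAG29 fell (−1.33 ± 0.29). Against control replicates 3 and 4 alone 2 were higher and 2 lower, and the median of the list was 0.70 by the first pair and −0.74 by the second.

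Markers of cell types were read beside these results. Of the mesophyll markers RBCS1A, RCA and CA1 were lower and CAB1 did not pass, and the 4 together were 28680.0 to 32120.0 FPKM in caterpillar-fed plants, against 30490.0 to 36220.0 FPKM in controls. All 3 xylem markers were higher, and 2 against control replicates 3 and 4 alone, where 14.2% and 7.41% of all tested genes were. Their sums were 65.6 to 82 FPKM in caterpillar-fed plants, against 33.2 to 53.2 FPKM in controls. XCP1, a protease of dying xylem cells, had 33.4, 26.6, 35.5 and 26.1 CPM in caterpillar-fed plants, against 11.5, 10.2, 19.3 and 20.8 CPM in controls (0.98 ± 0.18, edgeR adjusted p = 2.31e-04). Of the phloem markers 2 of 4 were higher (SUC2 at 0.42 ± 0.08), of the trichome markers 2 of 3 (GL3 at 1.03 ± 0.27) and of the guard cell markers 1 of 4; against control replicates 3 and 4 alone these were 2, 1 and 0. None of the 4 flower markers passed, with sums of 1.28 to 2.84 FPKM in caterpillar-fed plants and 1.59 to 2.38 FPKM in controls, nor did any of the 4 meristem markers tested. Of the root markers 1 passed the filter on low counts, PYK10, which rose by 1.02 ± 0.15, and EXPA7 had no count in any of the 8 libraries. Of the seed markers SESA1 alone was tested, on 84 counts against 3, a ratio of 26.3 with a 95% counting interval of 8.69 to 130, and OLEO1 had no count. The part of these cell types in the results was not tested.

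The pairs of controls also disagreed on single genes. In 161 genes all caterpillar-fed libraries lay above control replicates 1 and 2 and below replicates 3 and 4, and in 66 genes the reverse held. Opposite calls were made in 19 genes (0.0948%), 16 of them higher against replicates 1 and 2 and lower against replicates 3 and 4, and none of the 19 was called against all 4 controls. WAK3, a wall-associated kinase, had 2.5, 1.18, 3.02 and 2.54 CPM in caterpillar-fed plants, against 0.464, 1.05, 8.16 and 6.19 CPM in controls, which gave 1.60 by the first pair and −1.62 by the second. The alternative oxidase gene AOX1D gave 2.92 and −1.45. Of the 3 reverse cases the metal transporter gene NRAMP6 gave −0.40 and 0.45.

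Set against mites on plants of the same kind, the caterpillar-fed plants differed in 5147 genes (25.7%), 2753 higher (13.7%) and 2394 lower (11.9%). This contrast shares the caterpillar-fed libraries with the one above. Of the 2839 genes that caterpillars raised over controls, 740 were lower under caterpillars than under mites and 197 higher, and of the 2735 lowered genes 1250 were higher and 92 lower. Of the jasmonate synthesis genes 1 of 21 was higher under caterpillars (DAD1) and 4 were lower, with LOX2 at −0.49 ± 0.36 (edgeR adjusted p = 0.354) and AOS at −0.33 ± 0.22 (edgeR adjusted p = 0.308). ILL5 was higher under caterpillars (2.87 ± 0.46, edgeR adjusted p = 1.54e-04), as were CYP94B3 (1.24 ± 0.34, edgeR adjusted p = 0.0074) and MYB76 (0.78 ± 0.24, edgeR adjusted p = 0.018). THI2.1 (−3.12 ± 0.30, edgeR adjusted p = 7.51e-08), TI1 (−2.71 ± 0.27, edgeR adjusted p = 1.32e-07) and BGLU18 (−1.81 ± 0.32, edgeR adjusted p = 1.90e-04) were lower under caterpillars.

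By list, 16 of 27 aliphatic glucosinolate genes were higher under caterpillars than under mites and 2 lower, and of the indole genes 0 and 3 of 18. Of the salicylic acid genes 19 of 24 were lower, of the light-harvesting genes 19 of 21 higher and of the Calvin cycle genes 16 of 17 higher. Among all tested genes 13.7% were higher under caterpillars than under mites and 11.9% lower. The genes furthest above mites, among those also changed against controls, included AT4G28140, annotated as an integrase-type DNA-binding protein, with 200 counts against none in controls (at least 63-fold) and 4.72 ± 0.81 over mites. The furthest below included the receptor-like kinase gene CRK13 (−3.55 ± 0.29) and the receptor-like protein gene RLP53 (−3.23 ± 0.39).

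Whether seed priming altered the response was tested as an interaction with caterpillars on primed plants, which have their own controls. The quasi-likelihood test of edgeR called no gene, with 1445 of 20038 at an unadjusted p under 0.05, and DESeq2 called 10. With control replicates 1 and 2 as the only not-primed controls edgeR called 487 (215 higher and 272 lower), and with replicates 3 and 4 it called 9. The 20 steepest genes had the same sign in primed plants and passed there, other than PDF1.2c (3.37 ± 1.28, edgeR adjusted p = 0.0576): BSMT1 rose there by 7.81 ± 0.51, CYP94B3 by 6.22 ± 0.57 and CSLA01 by 5.99 ± 0.60, and HSP70 was at −1.69 ± 0.12. The interaction of BT5 was 0.75 ± 0.19 (edgeR adjusted p = 0.303), that of EGY3 −0.62 ± 0.22 (edgeR adjusted p = 0.569) and that of PDF1.2c −3.48 ± 2.58 (edgeR adjusted p = 0.821). Missing the threshold does not show that primed and not-primed plants responded alike.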

How the data were processed

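RNA from Arabidopsis rosettes was taken up with the RNeasy kit and on-column DNase and made into libraries with the NEBNext Ultra RNA kit, per the labels' protocols. The authors deposited a table of raw counts per gene for 24 libraries and a table of FPKM for each library. Reads were aligned with HISAT2 to TAIR10, per the submitters' processing notes. The HISAT2 version, the counting tool, its annotation and its use of strand are not stated in the labels or headers, so near-identical copies, overlapping genes and antisense partners may share reads. FPKM, as deposited by the authors, was used to compare levels between genes and in an alternative.

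Counts were tested with edgeR 4.0.16 in R 4.3.3: filterByExpr by group, TMM scaling, 1 quasi-likelihood fit of all 24 libraries with 6 group means, 2-sided, Benjamini-Hochberg adjusted p under 0.05. The procedure was tested on simulated data. Totals were 15852109 to 27986799 counts over the 24 libraries. Their number limits the precision of low genes. Counting intervals and floors cover counting error only, since reads without molecular identifiers are not independent molecules. Of the gene IDs 32548 of 32833 (99.1%) matched RefSeq names. Promoter windows of 250 bases came from the RefSeq TAIR10.1 genome and its own annotation, matched by locus tag.

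The genes and gene lists were chosen with earlier results of these data known. Named genes were the called genes with the 10 highest and 10 lowest fold changes that reached 5 CPM in either group without overlap, the 4 smallest adjusted p values of each list and members whose role is described, the 8 largest gains and losses of FPKM, genes called in opposite directions by the control pairs, and the extremes against mites. Alternatives were DESeq2 1.42.0, upper-quartile scaling, no filter, the compared groups alone, a replicate block, each library left out, limma 3.58.1 on log2(FPKM + 1) and log2(FPKM + 0.1), and each control pair alone. The mite libraries of primed plants entered the fit and no comparison. Some genes and promoter windows are not reported here.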

Additional observations from a re-analysis of the deposited data

Results flagged for a closer look

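In groups of 4 libraries, 1 library stood far from the other 3 in several of the genes named above, measured as its gap to the nearest library over the whole range of the group on the log2 CPM scale. About 1 in 20 groups is picked out this way by chance, so among this many named genes some such groups are to be expected. Among caterpillar-fed plants the share was 0.854 for FMO GS-OX2 and 0.854 for DR4 in replicate 1, which were the highest libraries of their group at 83.5 and 60.0 CPM. It was 0.897 for GSTF12 in replicate 1 at 62.3 CPM, and 0.881 for FMO GS-OX4 in replicate 2 at 18.4 CPM. It was 0.883 for ARR15 in replicate 4 at 9.41 CPM, the highest of its group, and 0.833 for HSP70 in replicate 4 at 129 CPM, the lowest.

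Among controls the share was 0.896 for ORA59 in replicate 3 at 0.984 CPM and 0.85 for MYC4 in replicate 3 at 51.8 CPM. It was 0.858 for HSP17.4 in replicate 1 at 8.31 CPM and 0.871 for AT5G48570 in replicate 1 at 58.0 CPM. It was 0.9 for MYB29 in replicate 2 at 37.8 CPM. For genes near 0 it rests on 1 to 3 counts in all controls: 1.0 for DAD1 in replicate 1, 1.0 for AT5G43570 in replicate 3 and 0.991 for SESA1 in replicate 2.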

How the results depend on the processing

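The count of changed genes, 5574, lay between 4058 (the compared groups alone) and 6916 (control replicates 1 and 2 alone) in the alternatives other than control replicates 3 and 4 alone, which gave 2495 (1485 higher, 1010 lower); DESeq2 called 5716. Leaving out 1 library gave 4150 to 5987 changed genes, 2329 to 2766 higher and 1821 to 3221 lower, the lowest without control replicate 2. In all 18 alternatives 1319 genes were higher and 876 lower. Against mites, leaving out 1 library gave 4083 to 4845 changed genes. The interaction, with no call by edgeR, had 10 calls by DESeq2 (5 higher, 5 lower), 487 with control replicates 1 and 2 alone (215 and 272), 9 with replicates 3 and 4 alone (7 and 2), 2 by limma without a filter (2 lower) and 1 without a filter on counts (1 lower). Leaving out 1 library gave 0 to 2 interaction calls, 0 to 1 higher and 0 to 2 lower, with 2 without replicate 4 of the caterpillar-fed primed plants and 2 without control replicate 2. The cause was not tested.

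The correlations of same-numbered deviations between the 2 groups were −0.071, −0.054, −0.016 and −0.116. Those of unlike numbers ran from −0.128 to 0.113, and the same-numbered values, all negative, lay within this range. Caterpillar-fed replicate 1 had 0.094 and 0.113 with control replicates 3 and 4, and −0.128 with control replicate 2. Caterpillar-fed replicate 4 had 0.11 and 0.094 with control replicates 1 and 2, and −0.101 with control replicate 3. Caterpillar-fed replicates 2 and 3 ran from −0.058 to 0.102. What lies behind these values was not tested. The labels do not say that a number marks a shared batch. With the number as a replicate block 5485 genes changed (2814 higher, 2671 lower), 5103 against mites and 0 in the interaction, and no gene named above changed its call.

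Genes without a call against all 4 controls changed sign in places. With control replicates 1 and 2 alone these were AOX1D 2.92, ARGAH1 −0.025, CAB1 −0.033, CYP81F2 0.0077, DR4 0.026, FRK1 1.05, HSP18.2 −0.047, KTI1 1.97, PR1 1.58 and WAK3 1.60 (log2 fold changes). With replicates 3 and 4 alone they were CERK1 −0.14, EDS16 −0.29, ESM1 0.013, NRAMP6 0.45, PAD3 −0.53, PAD4 −0.50 and PR4 −0.32. By limma they were KTI1 0.092, NRAMP6 0.0071 and PR1 0.37 on log2(FPKM + 1), with a filter or without, and AOX1D 0.41, KTI1 0.31, NRAMP6 0.021 and PR1 0.76 on log2(FPKM + 0.1). Leaving out 1 library gave ranges across 0 for AOX1D (−0.93 to 0.24), ARGAH1 (−0.053 to 0.10), CYP81F2 (−0.22 to 0.16), FLS2 (−0.0013 to 0.20), FRK1 (−0.89 to 0.039), IMS2 (−0.019 to 0.44), KTI1 (−0.72 to 0.32), NRAMP6 (−0.21 to 0.16), PAD4 (−0.19 to 0.45), PR1 (−0.56 to 0.29), TOC1 (−0.060 to 0.037) and TPS14 (−0.20 to 0.62).

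Calls lost when 1 library was left out had these ranges: ACX5 0.22 to 0.30 (without control 4), RCA −0.29 to −0.16 (without control 2), BHLH101 −1.45 to −0.86 and PAL1 0.25 to 0.41 (without control 4 or caterpillar-fed 1), and CA1 −0.34 to −0.18, FBA2 −0.29 to −0.16 and RBCS2B −0.33 to −0.18 (without control 1, control 2 or caterpillar-fed 1). Those of GTR2 (0.28 to 0.49) and RLP53 (1.11 to 2.06) were lost without control 1, control 2 or caterpillar-fed 2, and that of ORA59 (1.16 to 2.13) without control 1, control 2 or caterpillar-fed 4. That of MYB29 (0.27 to 0.43) was lost without control 2, caterpillar-fed 1 or caterpillar-fed 3. CHIL, CML37, CRK13 and PYL5 lost the call without 4 or 5 of the 8 libraries in turn. Calls were also lost with the compared groups alone in 12 genes (BHLH101, CA1, CML37, CRK13, FBA2, GRX480, GTR2, ORA59, PYL5, RBCS2B, RCA and RLP53), by limma without a filter in 9 (BHLH101, CML37, CRK13, FBA2, ORA59, PYL5, RBCS1A, RBCS2B and RCA), by limma with it in 1 (CRK13) and by DESeq2 in 2 (CRK13 and RLP53). Calls gained when 1 library was left out were those of TAT3 without control 3 or 4 (1.19 to 2.21), ERF1 without control 4 (1.11 to 2.03), HSP101 without control 3 or caterpillar-fed 2 (−0.39 to −0.16), MYB51 without control 4 or caterpillar-fed 3 (−0.58 to −0.32), ST2B without control 4, caterpillar-fed 1 or caterpillar-fed 3 (−0.51 to −0.25) and TCH2 without control 3, control 4 or caterpillar-fed 3 (−0.45 to −0.22). TCH2 also passed by DESeq2 (−0.34) and upper-quartile scaling (−0.35), TAT3 by limma (3.03 to 3.23) and ERF1 by limma on log2(FPKM + 0.1) (1.16).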
